A study of Mus musculus with 8 samples.

Results

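The 10 genes described here encode proteins of simple epithelia: the adhesion molecules Cdh1 and Epcam, the intermediate filament keratins Krt7, Krt8, Krt18 and Krt19, and the tight junction claudins Cldn3, Cldn4, Cldn6 and Cldn7. They were chosen by gene symbol, and all 10 were found among the 21182 symbols of the expression table. RNA sequencing of mouse embryos, each taken whole and singly at E6.75 (the embryonic day), gave their levels in RPKM, which are reads per kilobase of a gene's model for each 1000000 reads. The labels give 4 Tet1/2/3 TKO embryos, in which the genes of the 3 TET methylcytosine dioxygenases are knocked out, and 4 Control embryos, all on a C57BL/6 background. The sample descriptions tag the Control embryos as WT (wild type), without further detail of their genotype. The labels do not say how the knockout was made or from which litters the embryos came. The comparison asks how the epithelial program of the gastrulating embryo stands when the TET enzymes are absent.

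At this stage the embryo is built of epithelial sheets. The epiblast, the visceral endoderm that covers it and the extraembryonic ectoderm are held together by E-cadherin, the product of Cdh1, and by tight junctions sealed by claudins. Cells that enter the primitive streak lose E-cadherin under the repressor Snail, while keratin filaments of the simple epithelial type are best known here from trophoblast and endoderm. TET enzymes oxidise methylated cytosine at CpG sites and so can act on methylated promoters.

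The TET transcripts were examined first. Tet1 was at 15.3, 9.50, 9.21 and 11.7 RPKM in TKO-labelled embryos, against 5.04, 5.25, 4.93 and 5.76 RPKM in Control embryos. It was thus higher in all 4 TKO-labelled embryos (log2 difference 0.97, adjusted p = 0.103 by limma). Tet3 averaged 1.38 ± 0.25 RPKM in TKO-labelled and 1.85 ± 0.16 RPKM in Control embryos (SD, n = 4 each). All 4 TKO-labelled embryos lay below every Control embryo in Tet3 (log2 difference -0.26, adjusted p = 0.297 by limma). Tet2, below the filter on low values, averaged 0.784 ± 0.17 RPKM in TKO-labelled and 0.725 ± 0.19 RPKM in Control embryos (SD, n = 4 each), with overlapping values. One value per gene does not check a deletion of exons, since the remaining exons still yield reads. Because the level of Tet1 goes against a loss of its transcript, the embryos are called TKO-labelled throughout and each direction below rests on the label. The read total behind each embryo, estimated from the smallest RPKM values, was 9.90, 14.2, 19.0 and 11.7 M (M for 1000000) in TKO-labelled embryos and 16.4, 14.9, 12.4 and 14.3 M in Control embryos. With the longest annotated transcript as length, each member then rested on 102 to 6695 reads per embryo, with the fewest for Cldn4 in TKO replicate 2. Krt7 came out at 162 reads in that embryo with a length of 4094 bases, the longest of its 5 transcripts. A shorter length would give it fewer reads.

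Promoter sequence was found in RefSeq (GRCm38.p6) for 8 of the 10 members, all but Cdh1 and Krt19, as windows from 250 bases before to 50 bases after the gene start. The E-box CAGGTG, or CACCTG on the other strand, is the letter motif through which Snail and ZEB factors are known to bind the Cdh1 promoter. It occurred in 8 of the members' 9 windows (88.9%), at least 1 for each gene, where 20.2% of all 32851 windows and 17.4% of the 9508 windows of the tested genes hold it. Other motifs were searched as well. The GC box GGGCGG occurred in 6 of the 9 windows, against 35.7% of all windows. The TATA box TATAAA occurred in 1, against 13.6%, and the Grainyhead motif AACCNGGTT (N for any base) in 0, against 0.271%. The 250 bases before the start of 4 members are shown because these genes were the most abundant of the 10, and capitals mark the E-box.
Epcam, chr17:87635729-87635978, plus strand: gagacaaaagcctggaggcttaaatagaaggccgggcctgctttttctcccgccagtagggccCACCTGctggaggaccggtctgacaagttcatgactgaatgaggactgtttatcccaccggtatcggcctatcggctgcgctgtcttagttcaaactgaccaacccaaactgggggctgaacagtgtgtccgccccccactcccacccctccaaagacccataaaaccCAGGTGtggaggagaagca
Krt18, chr15:102027966-102028215, plus strand: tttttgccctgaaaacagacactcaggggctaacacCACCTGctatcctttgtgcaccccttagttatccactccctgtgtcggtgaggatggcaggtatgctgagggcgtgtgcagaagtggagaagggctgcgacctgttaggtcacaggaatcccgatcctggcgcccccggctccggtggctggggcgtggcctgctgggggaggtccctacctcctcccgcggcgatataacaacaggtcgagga
Krt8, chr15:102004343-102004592, minus strand: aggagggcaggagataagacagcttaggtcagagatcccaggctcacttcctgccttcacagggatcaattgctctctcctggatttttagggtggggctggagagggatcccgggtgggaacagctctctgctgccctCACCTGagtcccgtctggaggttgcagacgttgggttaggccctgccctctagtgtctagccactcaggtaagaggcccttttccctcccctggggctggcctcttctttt
Cldn6, chr17:23679115-23679364, plus strand: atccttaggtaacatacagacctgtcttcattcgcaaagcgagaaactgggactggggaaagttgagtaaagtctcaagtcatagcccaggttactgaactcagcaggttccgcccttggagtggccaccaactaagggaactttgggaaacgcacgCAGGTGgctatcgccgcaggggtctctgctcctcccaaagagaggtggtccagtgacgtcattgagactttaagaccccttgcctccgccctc
The count of CpG sites in the members' windows ran from 6 in Krt8 to 21 in Krt7, with a median of 7 over all windows. Krt8 and Krt18, whose products pair into 1 filament, lie on chromosome 15 with starts 23.9 kb apart on opposite strands, and Cldn3 and Cldn4 lie on chromosome 5 with starts 39.3 kb apart. A motif match is a description of letters and shows no binding.

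In whole-embryo RNA, fewer cells of a type and less RNA per cell cannot be told apart. None of the 10 genes differed between TKO-labelled and Control embryos past the threshold, and in each of them the 4 values of the groups overlapped. With limma and Benjamini-Hochberg adjustment over 10451 tested genes, 0 of 10 members passed an adjusted p of 0.05, against 1 gene or 0.00957% of all tested genes. Before adjustment, 0 of 10 members had a limma p under 0.05, against 17.5% of all tested genes, and the lowest adjusted p of a member was 0.512. In exact two-sided permutation tests over the 70 assignments of the embryos, the members' p-values ran from 0.286 to 0.857, where 0.0286 is the smallest possible. Values without overlap between the groups occurred in 0 of 10 members and in 9.41% of all tested genes. The median log2 difference of the members, TKO-labelled minus Control on the log2(RPKM + 1) scale, was -0.08, with 4 positive and 6 negative, while the median of all tested genes was 0.09 and 66.5% of them were positive. The 95% confidence intervals differed in width between members, and on that scale the interval of Krt7 ran from 0.532-fold to 1.19-fold and that of Epcam from 0.740-fold to 1.17-fold. All 10 members passed the filter of at least 1 RPKM in at least 4 embryos.

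**Figure D1:**
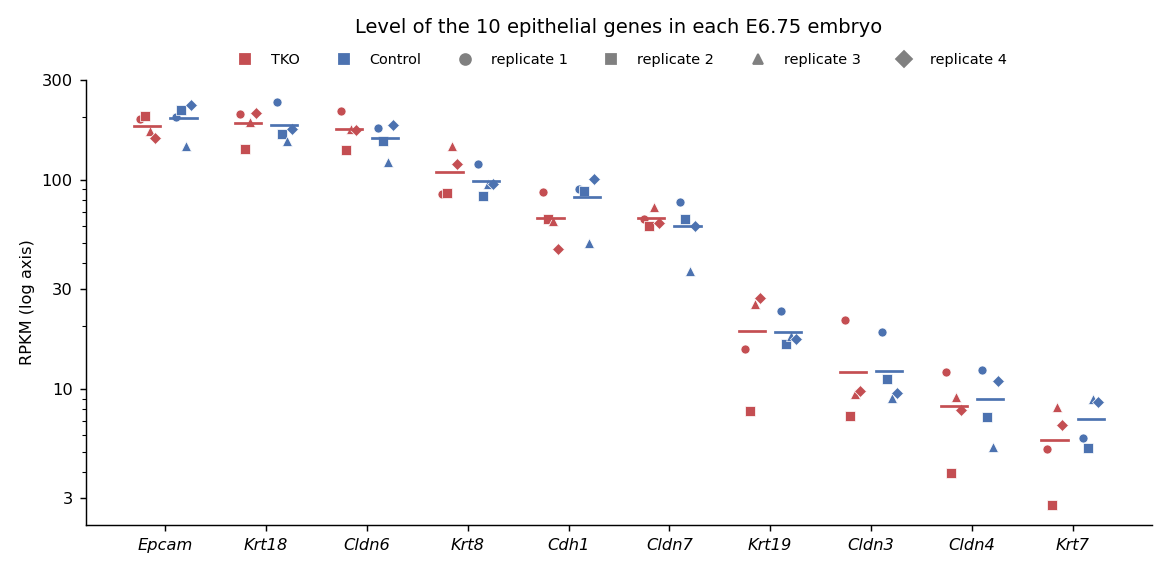
RPKM on a log axis for each of the 10 genes, with TKO-labelled embryos in red to the left and Control embryos in blue to the right, the marker shape giving the replicate number and the bar the mean of 4. The groups overlap in every gene, and 6 genes average above 50 RPKM while 4 lie below 20 RPKM.

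By level per length, the members fell into 6 abundant genes and 4 lower ones. Epcam, Krt18 and Cldn6 averaged 189.7, 185 and 167 RPKM over the 8 embryos and stood within the top 4.24%, 4.38% and 4.71% of tested genes by mean RPKM. Krt8, Cdh1 and Cldn7 followed at 104, 74.1 and 62.8 RPKM, and Krt19, Cldn3, Cldn4 and Krt7 lay at 18.9, 12.1, 8.64 and 6.45 RPKM. Neighbours in this order were not always told apart: Epcam was above Krt18 in 3 of 8 embryos, Krt8 above Cdh1 in 5, and Krt18 above Cldn6 and Cdh1 above Cldn7 in 6 each. By contrast, Cldn6 was above Krt8, and Cldn7 above Krt19, in all 8 embryos.

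Cdh1 encodes E-cadherin, the calcium-dependent adhesion molecule of adherens junctions. Its levels were 87.3, 65.0, 63.6 and 46.7 RPKM in TKO-labelled embryos, against 90.3, 88.8, 49.7 and 101.5 RPKM in Control embryos. Of the Control embryos 3 lay above all TKO-labelled ones, while Control replicate 3 lay near the bottom of the range. Cdh1 averaged 65.6 ± 16.7 RPKM in TKO-labelled and 82.6 ± 22.6 RPKM in Control embryos (SD, n = 4 each), a log2 difference of -0.31 (95% confidence interval, CI, -0.83 to 0.21, adjusted p = 0.512 by limma). Single embryos moved this value in both directions. Without Control replicate 3 the log2 difference was -0.54 with an unadjusted limma p of 0.0163 and an adjusted p of 0.296. Without TKO replicate 4 it was -0.16, with an unadjusted limma p of 0.507 and an adjusted p of 0.825, and without Control replicate 4 it was -0.20.

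Epcam encodes a homophilic adhesion glycoprotein that is found on most simple epithelia and binds claudin-7. Its levels were 195, 202, 172 and 159 RPKM in TKO-labelled embryos, against 199.9, 216, 146 and 228 RPKM in Control embryos. Both the lowest and the highest value belonged to Control embryos, and the range over all 8 embryos was 1.56-fold, the narrowest of the 10 members. The log2 difference was -0.10 (95% CI -0.43 to 0.23, adjusted p = 0.744 by limma).

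Cdh1 and Epcam varied together across the embryos. Pearson's r on log2(RPKM + 1) was 0.90 (exact permutation p = 0.00253, 0.00506 after Benjamini-Hochberg adjustment over 2 preset pairs) and Spearman's rho was 0.86 (exact permutation p = 0.0107, adjusted 0.0214). After centring on the group means r was 0.90 (permutation p = 0.0031, adjusted 0.0062), while rho was 0.71 and missed the threshold (permutation p = 0.0576, adjusted 0.115). The p-values after centring come from permuting the centred values across both groups and are approximate. Without TKO replicate 4 and Control replicate 3, the embryos farthest from the median of Cdh1, r was 0.74 over 6 embryos (exact permutation p = 0.0694, adjusted 0.139), so the relation rests in part on those embryos. The ratio of Epcam to Cdh1 ran from 2.23 to 3.41 in TKO-labelled embryos and from 2.21 to 2.93 in Control embryos.

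**Figure D2:**
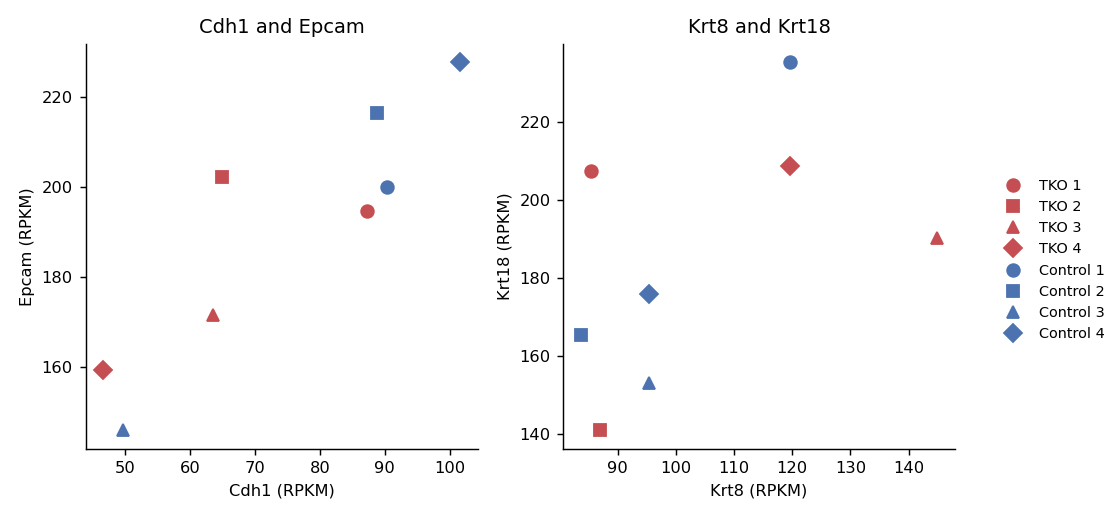
Left, Epcam against Cdh1, and right, Krt18 against Krt8, both in RPKM, with TKO-labelled embryos in red, Control embryos in blue and the shape giving the replicate number. The points of the left panel lie along a line (r = 0.90), with TKO replicate 4 and Control replicate 3 at its low end, and those of the right panel scatter more (r = 0.53).

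Krt8 and Krt18 encode the type II and type I keratins that polymerise with each other, the first keratin pair made in the embryo. Krt8 was at 85.5, 86.9, 145 and 119.5 RPKM in TKO-labelled embryos, against 119.6, 83.7, 95.5 and 95.4 RPKM in Control embryos (log2 difference 0.12, 95% CI -0.28 to 0.52, adjusted p = 0.749 by limma). The TKO-labelled values spanned more than the Control values, with TKO replicate 3 highest of all 8. Krt18 was at 207, 141, 190.1 and 209 RPKM in TKO-labelled embryos, against 235, 165, 153 and 176 RPKM in Control embryos (log2 difference 0.04, 95% CI -0.33 to 0.40, adjusted p = 0.926 by limma). Its highest value was that of Control replicate 1 and its lowest that of TKO replicate 2. The Krt18 to Krt8 ratio was 2.43, 1.62, 1.31 and 1.75 in TKO-labelled embryos and 1.97, 1.98, 1.603 and 1.84 in Control embryos, so Krt18 was the higher of the pair in each embryo. Their correlation over 8 embryos was weaker than that of Cdh1 and Epcam in size and did not pass the threshold (r = 0.53, exact permutation p = 0.176, adjusted 0.176; rho = 0.48, exact permutation p = 0.243, adjusted 0.243), and the difference between both correlations was not tested. Without the embryos farthest from the median of Krt8, r was 0.45 over 6 embryos. A processed pseudogene of Krt8 is annotated in the mouse, and how its reads were assigned is not given in the sources used here.

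Krt19 encodes a small type I keratin without a tail domain, and Krt7 a type II keratin of ductal and trophoblast epithelia. Krt19 was at 15.6, 7.845, 25.4 and 27.1 RPKM in TKO-labelled embryos, against 23.7, 16.4, 17.8 and 17.4 RPKM in Control embryos. Its mean was nearly equal in both groups, at 19.0 ± 9.02 RPKM in TKO-labelled and 18.8 ± 3.28 RPKM in Control embryos (SD, n = 4 each), with the TKO-labelled embryos lying on both sides of the Control range (log2 difference -0.11, adjusted p = 0.880 by limma). Krt7 was at 5.15, 2.80, 8.19 and 6.71 RPKM in TKO-labelled embryos, against 5.84, 5.23, 8.99 and 8.68 RPKM in Control embryos. It had the most negative difference of the members (log2 difference -0.33, 95% CI -0.91 to 0.25, adjusted p = 0.537 by limma), which shrank to -0.08 without TKO replicate 2, the embryo with the lowest level. The other 47 keratins were low: the 4 members made up 97.8% to 98.6% of the summed RPKM of 51 keratins in TKO-labelled embryos and 97.0% to 98.7% in Control embryos. Only 1 other keratin passed the filter, Krt10, a type I keratin of the suprabasal epidermis, at 2.90 ± 0.47 RPKM in TKO-labelled and 4.22 ± 0.67 RPKM in Control embryos (log2 difference -0.42, adjusted p = 0.199 by limma). The next keratin by level, Krt23, averaged 0.314 RPKM over the 8 embryos.

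Cldn6, a claudin of early embryonic epithelia, was the most abundant of the 23 claudins. Its levels were 213, 139, 175 and 174 RPKM in TKO-labelled embryos, against 178, 154, 122 and 183 RPKM in Control embryos (log2 difference 0.14, 95% CI -0.21 to 0.50, adjusted p = 0.671 by limma). The groups overlapped over most of their range. Cldn7, the claudin that binds EpCAM, was at 65.0, 60.2, 74.5 and 62.1 RPKM in TKO-labelled embryos, against 78.4, 65.1, 36.5 and 60.5 RPKM in Control embryos (log2 difference 0.17, 95% CI -0.28 to 0.61, adjusted p = 0.691 by limma). Here the TKO-labelled embryos were close to each other and Control replicate 3 stood lowest; without that embryo the log2 difference was -0.05. Cldn6 took 59.6% to 65.6% of the summed claudin RPKM in TKO-labelled embryos and 57.4% to 65.2% in Control embryos, and Cldn7 took 20.04% to 25.8% in TKO-labelled and 19.3% to 25.4% in Control embryos.

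Cldn3 and Cldn4 encode close relatives that serve as receptors of Clostridium perfringens enterotoxin. Cldn3 was at 21.5, 7.41, 9.50 and 9.84 RPKM in TKO-labelled embryos, against 18.8, 11.1, 9.065 and 9.58 RPKM in Control embryos (log2 difference -0.06, 95% CI -0.73 to 0.60, adjusted p = 0.933 by limma). In each group replicate 1 stood highest. Cldn4 was at 12.1, 3.96, 9.135 and 7.98 RPKM in TKO-labelled embryos, against 12.4, 7.34, 5.30 and 10.9 RPKM in Control embryos (log2 difference -0.13, 95% CI -0.80 to 0.55, adjusted p = 0.858 by limma). Its lowest value was that of TKO replicate 2, and without it the log2 difference was 0.15. Of the other 19 claudins only Cldn12 and Cldn2 passed the filter, at 9.68 and 7.09 RPKM in TKO-labelled and 9.33 and 6.88 RPKM in Control embryos, with limma adjusted p-values of 0.989 and 0.902.

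**Figure D3:**
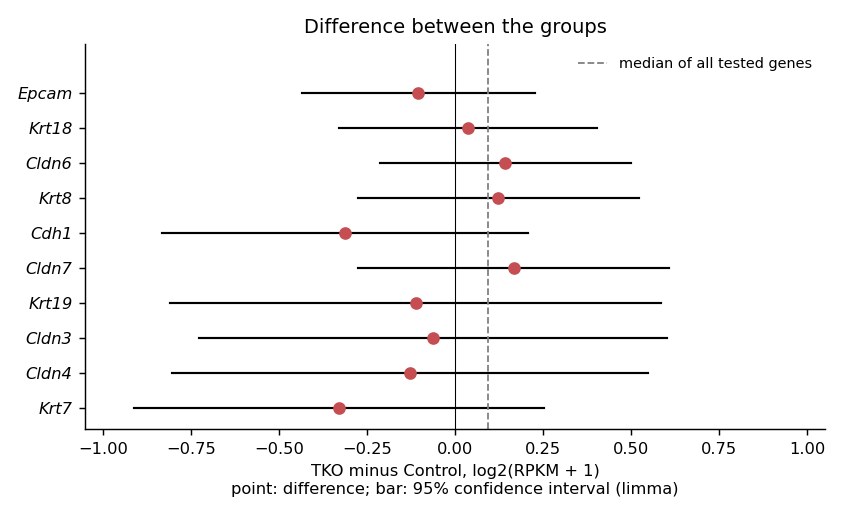
Log2 difference of each gene, TKO-labelled minus Control on the log2(RPKM + 1) scale, with its 95% confidence interval from limma, ordered by mean level. Every interval includes 0, and the dashed line marks the median of all tested genes, 0.09.

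The members differed more from embryo to embryo than most genes of their level. The SD within groups on the log2(RPKM + 1) scale was compared with that of the 1000 tested genes nearest in mean level. For Krt19, Cldn4, Cldn3, Cdh1 and Krt7 it was larger than that of 98.4%, 97.9%, 97.6%, 96.3% and 94.3% of them. For Epcam it was larger than that of 71.1%, over fewer than 1000 genes, since Epcam lies near the top of the order by level. TKO replicate 2 held the lowest value of all 8 embryos in 5 members, Krt7, Krt18, Krt19, Cldn3 and Cldn4, and Control replicate 3 in 3 members, Epcam, Cldn6 and Cldn7. Control replicate 1 held the highest value in Krt18, Cldn4 and Cldn7. TKO replicate 2 was low in these keratins and claudins but not in Epcam, where its 202 RPKM was the highest of the TKO-labelled embryos. Without TKO replicate 2 the median log2 difference of the members was 0.16, and without Control replicate 1 it was 0.09.

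**Figure D4:**
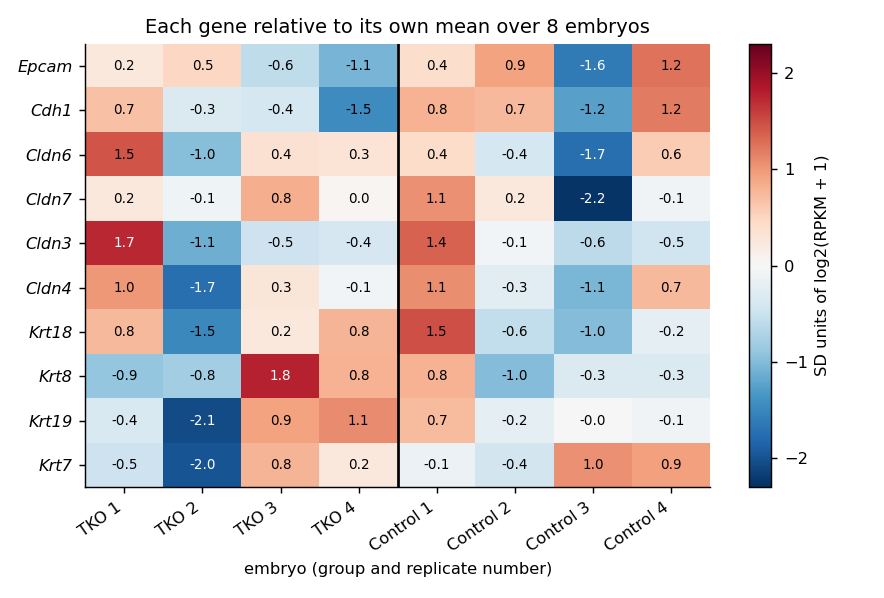
Level of each gene in each embryo as its distance from the gene's mean over 8 embryos, in SD units of log2(RPKM + 1), with TKO-labelled embryos left of the line and Control embryos right of it. TKO replicate 2 is lowest in 5 genes and Control replicate 3 in 3, and no gene separates the groups.

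Tissue markers also differed between embryos. All 8 epiblast markers passed the filter and summed to 493 to 913 RPKM in TKO-labelled and 456 to 650.3 RPKM in Control embryos. All 12 visceral endoderm markers passed it too, with sums of 1130 to 1431 RPKM and 527 to 1873 RPKM in TKO-labelled and Control embryos. The 9 extraembryonic ectoderm markers found in the table summed to 145 to 168 RPKM in TKO-labelled and 146 to 210.2 RPKM in Control embryos, so each main tissue of a whole embryo was represented. Primitive streak and mesoderm markers summed to 22.0 to 107 RPKM in TKO-labelled and 14.4 to 18.7 RPKM in Control embryos, and the highest sum was that of TKO replicate 2, with the streak gene T at 34.0, Mixl1 at 48.3 and Mesp1, listed at 0 in 3 other embryos, at 13.9 RPKM. The part of these cells in the low keratin and claudin levels of that embryo was not tested.

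Trophoblast and maternal markers went along with some keratins more than with Krt18. Over the 8 embryos, Pearson's r with the mean level of ectoplacental cone and giant cell markers was 0.87 for Krt8, 0.81 for Krt7, 0.80 for Krt19 and 0.41 for Krt18. With the mean level of decidual markers it was 0.53, 0.81, 0.49 and 0.10 in the same order. These coefficients were picked from those of every member with every list of tissue markers, and others were of similar size. With the mean level of blood markers, r was 0.68 for Krt8, 0.865 for Krt7, 0.663 for Krt19 and 0.234 for Krt18. Cldn7 had an r of 0.859 with the mean level of visceral endoderm markers. None of these coefficients was tested, so the link of the keratins to trophoblast markers is not singled out. Prl3d1, a giant cell hormone gene, was at 4.28, 1.54, 108 and 13.5 RPKM in TKO-labelled embryos, against 7.78, 0.384, 12.2 and 10.8 RPKM in Control embryos, and its highest embryo, TKO replicate 3, also held the highest Krt8. Of the 5 tested markers of ectoplacental cone and giant cells, Prl3d1 and Plac1 had positive log2 differences (0.87 and 0.52) and Psg23, Ascl2 and Hand1 negative ones (-0.89, -0.61 and -0.21). Psg23, a pregnancy-specific glycoprotein gene, was at 2.68, 1.97, 2.89 and 2.23 RPKM in TKO-labelled embryos, against 5.53, 4.51, 5.70 and 5.71 RPKM in Control embryos, so the groups did not overlap, and its difference missed the threshold over all genes (adjusted p = 0.0813 by limma). The decidual prolactin gene Prl8a2 was at 21.3, 11.8, 354 and 45.2 RPKM in TKO-labelled embryos, against 174, 1.32, 336 and 209.8 RPKM in Control embryos. The 3 embryos with the highest Prl8a2, TKO replicate 3 and Control replicates 3 and 4, were also the 3 with the highest Krt7. The 8 markers of ectoplacental cone and giant cells, 5 of which passed the filter, summed to 17.2 to 219 RPKM in TKO-labelled and 26.5 to 55.7 RPKM in Control embryos, with Prl2c2 and Ctsq listed at 0 in 6 embryos each. The 8 decidual markers, 6 of which passed, summed to 17.2 to 373 RPKM in TKO-labelled and 4.79 to 373 RPKM in Control embryos, with Hoxa11 listed at 0 in TKO replicate 1 and Control replicate 2. The 4 blood markers found in the table, 2 of which passed, summed to 0.247 to 22.4 RPKM in TKO-labelled and 0.465 to 30.2 RPKM in Control embryos. With the decidual marker level as a covariate, the log2 difference of Krt7 was -0.13 (limma adjusted p = 0.778), and with that of the ectoplacental cone it was -0.28 (limma adjusted p = 0.421). Both covariates were added after seeing the data, and without a covariate the difference was -0.33. With the planned covariates it was -0.49 for parietal endoderm, -0.47 for extraembryonic ectoderm and -0.23 for visceral endoderm (limma adjusted p = 0.549, 0.333 and 0.740). The 12 parietal endoderm markers summed to 264 to 937 RPKM in TKO-labelled and 159 to 315 RPKM in Control embryos, and with their level as a covariate the log2 difference of Cldn3 was 0.59 and that of Krt8 was -0.18, both short of the threshold (limma adjusted p = 0.417 and 0.734).

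**Figure D5:**
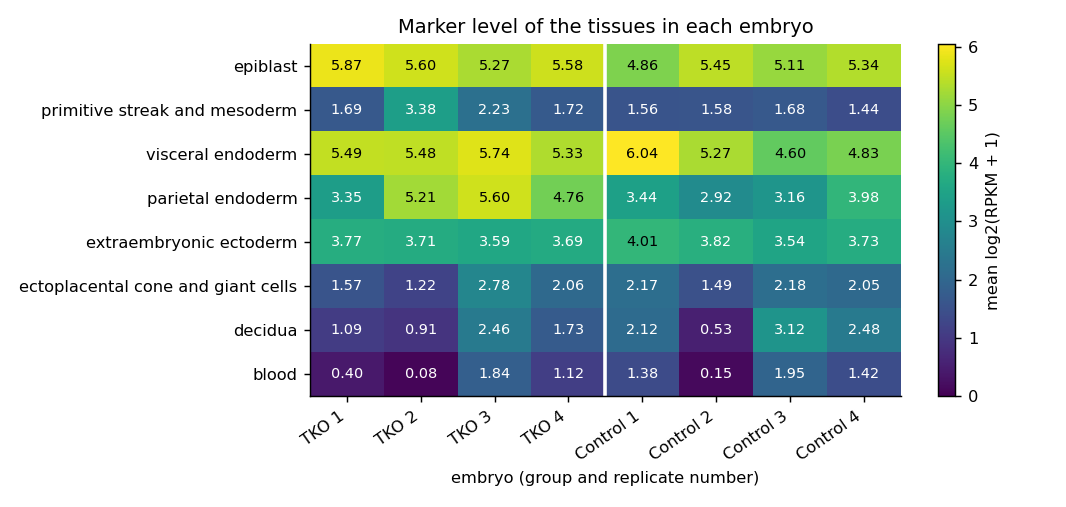
Mean log2(RPKM + 1) of 8 lists of tissue markers in each embryo, with TKO-labelled embryos left of the line and Control embryos right of it. TKO replicate 2 has the highest level of streak markers (3.38), and decidual markers run from 0.91 to 2.46 in TKO-labelled and from 0.53 to 3.12 in Control embryos.

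Partners of these proteins were described by the same model, and 0 of the 71 tested genes of 5 further lists passed limma's threshold over all genes. Before adjustment 3 of the 71 had a limma p under 0.05, namely Mmp2, Twist1 and Tcf3, against 17.5% of all tested genes. All 3 stand on the list of repressors of Cdh1 and mesenchymal markers. The counts of positive differences below stand beside 66.5% positive over all tested genes. Of 18 tested tight junction partners 7 had positive and 11 negative differences (median -0.02). St14, the membrane protease matriptase, was at 4.09, 2.66, 4.04 and 2.42 RPKM in TKO-labelled embryos, against 4.65, 4.31, 3.49 and 4.59 RPKM in Control embryos (log2 difference -0.31, adjusted p = 0.348 by limma). Ocln, which encodes the tight junction protein occludin, was at 2.84, 2.87, 4.15 and 3.23 RPKM in TKO-labelled embryos, against 3.15, 2.87, 1.88 and 2.22 RPKM in Control embryos (log2 difference 0.28, adjusted p = 0.371 by limma). Both overlapped between the groups.

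Of 23 tested genes of adherens junctions and polarity 13 were positive (median 0.04), and the 2 with the smallest p were Jup, which encodes plakoglobin (log2 difference 0.35, adjusted p = 0.317 by limma), and Ctnnd1, which encodes the E-cadherin partner p120-catenin (0.32, adjusted p = 0.394 by limma). Of 7 tested desmosomal genes 4 were positive (median 0.05), with Dsc2 and Pkp3, a desmosomal cadherin and a plakophilin, at log2 differences of 0.27 and -0.20 (limma adjusted p = 0.418 and 0.438). Of 14 tested epithelial transcription and splicing factors 8 were positive (median 0.16). The trophoblast and ectoderm regulator gene Tfap2c, listed under its older symbol, had a log2 difference of -0.49 (limma adjusted p = 0.297), and Klf4 one of 0.72 (limma adjusted p = 0.415).

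Repressors of Cdh1 and mesenchymal markers had 6 positive and 3 negative differences among 9 tested genes (median 0.41). All 12 parietal endoderm markers had positive differences as well (median 1.33), 9 of them with an unadjusted limma p under 0.05 and 0 past the threshold over all genes, and their part in the mesenchymal list was not tested. In the mesenchymal list the smallest p was that of the matrix metalloproteinase gene Mmp2 (log2 difference 0.75, adjusted p = 0.136 by limma). Twist1 came next (0.51, adjusted p = 0.173 by limma), and Tcf3 went the other way (-0.39, adjusted p = 0.221 by limma). These 3 of the 9 tested genes had an unadjusted limma p under 0.05, against 17.5% of all tested genes. Values without overlap between the groups occurred in 2 of the 9, Mmp2 and Twist1, against 9.41% of all tested genes. Snai1, the repressor of Cdh1 in the streak, also stands on the parietal endoderm list and on the streak and mesoderm list. It was at 1.78, 6.747, 9.25 and 2.58 RPKM in TKO-labelled embryos, against 2.02, 1.56, 2.17 and 3.64 RPKM in Control embryos. The embryos highest in Snai1, TKO replicates 3 and 2, were also the 2 highest in the mean level of the parietal endoderm markers. They were the 2 highest in the mean log2(RPKM + 1) of the streak and mesoderm markers as well (2.23 and 3.38). Snai1 is part of both means, and its relation to either tissue was not tested. These 2 embryos held Cdh1 levels of 63.6 and 65.0 RPKM, and the lowest Cdh1 stood in TKO replicate 4, at 2.58 RPKM of Snai1.

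The genes whose pattern over the 8 embryos was most like the mean of the members, of 6135 candidates averaging at least 5 RPKM, were Dnajc22, Lmf2, Ncln, Igf2 and Ncapd3, with Pearson's r of 0.93, 0.93, 0.92, 0.92 and 0.91. These values are given as a ranking, since the highest of many coefficients over 8 points is large by selection. Igf2, the imprinted growth factor gene, was at 58.2, 37.4, 67.0 and 47.1 RPKM in TKO-labelled embryos, against 64.4, 43.8, 41.2 and 58.2 RPKM in Control embryos.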

How the data were processed

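Per the labels' protocols, single E6.75 embryos were lysed, SMARTer cDNA was prepared from each, and Nextera XT libraries followed. The deposited values are RPKM, computed by the authors; per the submitters' processing notes HTSeq and mm9 were used. Aligner, annotation and strand setting were not given in the sources used here, so reads of close paralogs or antisense partners may be shared.

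Groups came from the labels, and p-values cover the spread between 8 embryos. limma 3.58.1 in R 4.3.3 was run on log2(RPKM + 1), which understates changes of low genes, with a variance trend, on genes with at least 1 RPKM in at least 4 embryos. Two-sided p-values were adjusted by Benjamini-Hochberg over 10451 genes and held against 0.05. The fit was also run on simulated data, with noise drawn separately for each gene and added changes larger than any member's difference. That run does not measure the power for changes of the members' size. The read total was placed where the largest share of low RPKM values of genes with 1 transcript came out at 1 to 3 whole reads within 2%. That share was 30.7% to 38.0% of low values. At the same total 47.2% to 55.7% came out at 1 to 10 whole reads, so whole reads could not be recovered for a count test. RefSeq windows, on another build, were matched by symbol.

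The members and lists were chosen with earlier results of these data known. Named are all members, per list the 2 genes with the smallest p, the most abundant other claudins and the 5 genes most like the members' mean; TET genes, Snai1, Tcf3 and single tissue markers were added. Of the tight junction list, 1 gene is not reported here.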

Additional observations from a re-analysis of the deposited data

How the results depend on the processing

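Each member was refitted under 18 alternatives, and 0 members passed the threshold under any of them (lowest adjusted p 0.264, for Krt7). The signs of Cdh1, Epcam, Krt7 and Cldn6 held in all 18, while 6 members changed sign at least once. The changed values were 0.59 for Cldn3, 0.091 for Cldn4 and -0.181 for Krt8 with the parietal endoderm covariate, 0.14 for Cldn3 and 0.027 for Cldn4 with the extraembryonic ectoderm covariate, -0.033 for Cldn7 and -0.076 for Krt18 with the visceral endoderm covariate, -0.049 for Krt18 after median-ratio scaling, and 0.041 for Krt19 with the decidua covariate, which was added after seeing the data, as was that of the ectoplacental cone. Leaving out 1 embryo gave log2 differences of -0.54 to -0.16 for Cdh1, -0.24 to -0.029 for Epcam, -0.50 to -0.080 for Krt7, 0.021 to 0.25 for Cldn6, -0.36 to 0.15 for Cldn3, -0.33 to 0.15 for Cldn4, -0.051 to 0.31 for Cldn7, -0.040 to 0.17 for Krt18, -0.32 to 0.23 for Krt19 and -0.023 to 0.23 for Krt8. The median of the members ran from -0.18 to 0.16 over all alternatives. The cause of these shifts was not tested. Over all genes the count past the threshold, 1 with all 8 embryos, was 0 without the filter, 3 with the parietal endoderm covariate and 0 with the visceral endoderm, decidua or ectoplacental cone covariate, and 0 to 36 when 1 embryo was left out, with 36 without TKO replicate 1. Over all tested genes the median log2 difference was 0.02 after median-ratio scaling, against 0.09 before it. Same-numbered embryos correlated at -0.02 to 0.40, and 4 of the 8 correlated best with the embryo of their own number. The labels give no litters and not every pair was above 0.1, so the numbers were not taken as pairs; with the replicate block the count over all genes was 0. Without its 2 farthest embryos the correlation of Cdh1 and Epcam was 0.74 and missed the threshold, as did its rank correlation after centring (0.71). The lowest estimate of reads behind a member was 102, and it carries the uncertainty of the estimated read totals and of the transcript lengths taken.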

Other observations

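Among the keratins below the filter, Krt42 was picked out after its values were seen. It was at 0.717, 0.228, 0.643 and 0.385 RPKM in TKO-labelled embryos, against 0.078, 0.086, 0.259 and 0 RPKM in Control embryos, so the groups overlapped by TKO replicate 2 and Control replicate 3, and at this level it was not tested.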
